A study of Homo sapiens with 3 samples.

Results

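RSPO1 and 9 other genes of the Wnt pathway were followed across 3 RNA sequencing libraries of HEK293 cells, a human embryonic kidney line. The members are the rows whose symbol is RSPO1, LGR4, LGR5, ZNRF3, RNF43, AXIN2, LEF1, NKD1, SP5 or CTNNB1, which gave 10 of the 57268 rows of the deposited table of read counts, 1 row per symbol. The set was selected on the RSPO1 ratios, which were among the lowest of the protein-coding genes in the library with both overexpressed proteins, so those ratios are a description. The question for the others was whether Wnt target genes follow it. The groups were cells with no overexpression (control), cells overexpressing ADAR2 alone, and cells overexpressing ADAR2 together with SRSF9. Each group is 1 library, and all 3 come from the same cell line. The vector, its promoter and the time of harvest are not stated in the labels. With 1 library per group no difference has a replicate check, and no p-value is given. The study asked how SRSF9, a serine/arginine-rich splicing factor, affects editing at sites of ADAR2, an enzyme that converts adenosine to inosine in double-stranded RNA. The values here are transcript levels and not editing levels.

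Wnt ligands bind Frizzled receptors and the coreceptors LRP5 and LRP6, which stops the destruction complex from marking beta-catenin for degradation. Beta-catenin then enters the nucleus and, with TCF and LEF proteins, switches on target genes. The membrane ubiquitin ligases ZNRF3 and RNF43 remove Frizzled from the cell surface. R-spondins bind these ligases together with an LGR receptor and so spare Frizzled, which raises the response to Wnt. Several targets act back on the pathway: AXIN2 is part of the destruction complex, NKD1 binds Dishevelled, SP5 is a transcription factor, and ZNRF3, RNF43 and LGR5 belong to the receptor step itself.

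Of the 10 members, 6 have a start-site window in the RefSeq promoter table (GRCh38.p14), which spans 250 bases before to 50 bases after the start. The windows of RSPO1 and SP5 are shown because RSPO1 is the gene whose level differed most and SP5 is the 1 member of these 6 whose window holds core TCF/LEF letters. The sequence CTTTGAT was searched on both strands, together with the related sequence CTTTGAA, and likewise the sequence CTTTGTT as well as the sequence CTTTGTA. Matches are in capitals. The RSPO1 window is chr1:37634843-37635142 on the minus strand and the SP5 window chr2:170715087-170715386 on the plus strand, each 5′ to 3′.
RSPO1: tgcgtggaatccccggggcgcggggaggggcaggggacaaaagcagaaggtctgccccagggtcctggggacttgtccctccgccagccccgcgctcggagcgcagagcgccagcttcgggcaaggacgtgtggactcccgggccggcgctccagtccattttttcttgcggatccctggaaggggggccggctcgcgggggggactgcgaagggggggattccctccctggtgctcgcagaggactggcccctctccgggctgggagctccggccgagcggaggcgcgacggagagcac
SP5: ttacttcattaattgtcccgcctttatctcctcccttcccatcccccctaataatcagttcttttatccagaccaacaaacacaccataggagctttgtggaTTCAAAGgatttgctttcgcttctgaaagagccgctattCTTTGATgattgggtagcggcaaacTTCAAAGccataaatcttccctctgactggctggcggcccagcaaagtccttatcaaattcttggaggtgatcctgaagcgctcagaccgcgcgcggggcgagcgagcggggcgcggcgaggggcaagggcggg
The RSPO1 window has 0 matches and a GC content of 72%. The SP5 window has 3, which begin 148, 109 and 84 bases before the start. At least 1 match is present in 13.8% of the 35116 windows of the same length in the table, and 3 or more are present in 0.179%. The windows of LGR4, RNF43, LEF1 and CTNNB1 had 0 matches. These are letters in a short window and not sites of binding.

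The libraries held 152878282 reads for the control, 132887974 for ADAR2 alone and 97875935 for both proteins. ADARB1, which encodes ADAR2, stood at 114, 16100.0 and 13647 CPM (reads per 1e6 reads of the library, after TMM scaling of its size), and SRSF9 at 372, 369 and 18288 CPM, in that order. All 12 HEK293 identity genes examined were at 1 CPM or more in each library, with summed levels of 934 to 988 CPM. Defining markers of red cells (6 genes, 0 at 1 CPM or more) summed to 1.31 to 1.44 CPM, of white blood cells (6 genes, 2 at 1 CPM or more) to 4.76 to 5.17 CPM, and of fibroblasts (7 genes, 1 at 1 CPM or more, COL1A1) to 34.3 to 39.9 CPM. Markers of other epithelial lines (6 genes, 3 at 1 CPM or more) summed to 17.3 to 18.3 CPM. The library with both proteins stands apart by HBB, a beta-globin gene, at 383 CPM against 1.44 in the control and 1.15 with ADAR2, and by the delta-globin gene HBD, at 946 CPM against 3.69 and 3.55. The globin genes are not in the red cell list above. Across 10198 genes of the same libraries, GC-rich transcripts had higher ratios to the control: Spearman's rho was 0.76 with ADAR2 and 0.70 with both proteins. It was 0.19 when the 2 overexpressing libraries were compared. The part of either in the results below was not tested. Values with the GC trend removed are given for RSPO1 and SP5, for LGR4 and CTNNB1 against the control, and as ranges over the members other than RSPO1 and SP5. They are also given beside log2 ratios of Wnt genes named from the lists that the removal moved by over 1.5 times. In bulk RNA, fewer cells that express a gene and less RNA per cell cannot be told apart.

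RSPO1 (ENSG00000169218.9), the secreted R-spondin expressed in these cells, had 2623 reads in the control, 2635 with ADAR2 and 1014 with both proteins. These are levels of 17.0 CPM (95% Poisson interval 16.3 to 17.6), 19.6 CPM (18.9 to 20.4) and 10.6 CPM (9.94 to 11.2). The library with both proteins was low and its interval did not reach those of the others, while the ADAR2 library was slightly above the control. Against ADAR2 alone the level with both proteins was 0.539 times (95% counting interval 0.501 to 0.580, from the exact binomial split of the reads of 2 libraries), a log2 ratio of -0.89. Among 10362 genes with a mean of 10 CPM or more, 1 lay lower in that comparison, the processed pseudogene EEF1A1P22, and 0 of the 9594 protein-coding genes did. Against the control the ratio with both proteins was 0.623 (0.579 to 0.670), with 13 genes lower, 2 of them protein-coding. ADAR2 alone against the control gave 1.16 (1.09 to 1.22), a log2 ratio of 0.21. The RSPO1 transcript is GC-rich (58.3%), and with the GC trend removed these log2 ratios were 0.08 with ADAR2 against the control, -0.93 with both proteins against ADAR2 and -0.84 with both proteins against the control. These are the values that singled the gene out, and they support nothing further. Other family members were barely detected: RSPO2 had 30, 22 and 16 reads, RSPO3 had 4, 12 and 10, and RSPO4 had 28, 37 and 28. All intervals cover counting error only.

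**Figure D1:**
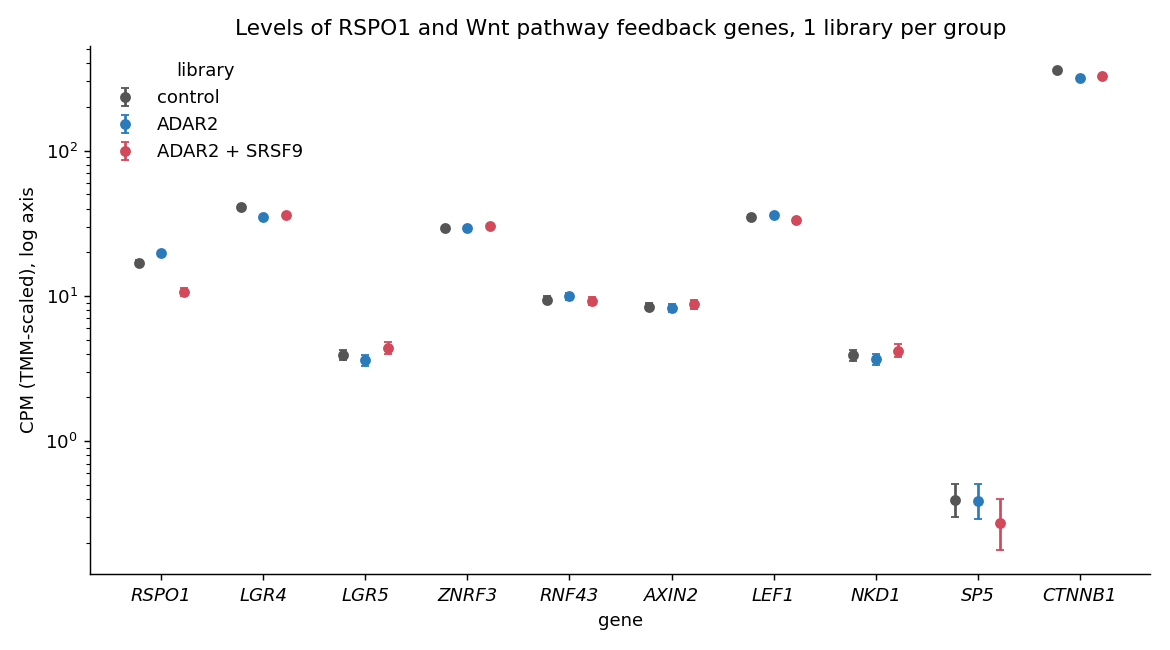
CPM (log axis) of the 10 genes in the control (grey), ADAR2 (blue) and ADAR2 plus SRSF9 (red) libraries, with 95% Poisson intervals of the read counts. RSPO1 stands at 10.6 CPM with both proteins against 17.0 and 19.6 CPM in the other libraries, while the 3 points of the other genes lie close together and those of SP5, at 26 to 61 reads, have wide intervals.

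How the members compare with one another needs levels per length. In CPM per kilobase of merged exons (RPKM), CTNNB1 led in each library (29.9 in the control, 26.7 with ADAR2, 27.6 with both proteins). LEF1 followed at 6.55, 6.72 and 6.18 RPKM. RSPO1 came next to LGR4 in the order: at 5.50 RPKM it was 4th in the control behind LGR4 (6.47), at 6.35 it was 3rd with ADAR2 ahead of LGR4 (5.54), and at 3.42 it was 5th with both proteins, behind LGR4 (5.72) and ZNRF3 (4.36). AXIN2, RNF43, LGR5, NKD1 and SP5 held places 6 to 10 in that order in each library, with control levels from 1.61 RPKM for AXIN2 to 0.223 for NKD1 and 0.192 for SP5. The neighbours NKD1 and SP5 are close in the control, and SP5 rests on 61 reads there.

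Reads of RSPO1 set against reads of another member of the same library do not depend on how libraries are scaled. The GC trend is not removed from these ratios, and GC content differs between members (58.3% for RSPO1, 42.1% for LGR4). Per 100 reads of AXIN2 there were 202 RSPO1 reads in the control (95% interval 189 to 216), 238 with ADAR2 (222 to 256) and 121 with both proteins (110.1 to 132). Per 100 reads of LEF1 there were 48.3, 54.5 and 31.9, and per 100 reads of ZNRF3 there were 58.1, 66.7 and 34.8. The same order held against each of the 9 other members: the ratio was highest with ADAR2 and lowest with both proteins. All 9 ratios share the RSPO1 reads on which the set was selected, so they are a description and not 9 separate results. Against RNF43 the read intervals of the control (169 to 192) and ADAR2 (185 to 212) overlapped. Against SP5 those of all 3 libraries did. With both proteins the ratio was between 0.441 times its ADAR2 value (against LGR5) and 0.770 times (against SP5). Without SP5 the highest value was 0.586 times, against LEF1.

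LGR4 and LGR5 encode receptors that bind R-spondins, and LGR5 is itself a Wnt target in many tissues. LGR4 (ENSG00000205213.9) had 6335, 4713 and 3474 reads, or 41.0, 35.1 and 36.2 CPM in the control, ADAR2 and both-protein libraries. The control was the high library, and the 2 overexpressing libraries lay close together. Their ratio was 1.03 (0.988 to 1.08), and ADAR2 against control gave 0.856 (0.824 to 0.889). LGR4 is AT-rich (GC content 42.1%), and that log2 ratio of -0.22 was -0.11 with the GC trend removed. For both proteins against control the log2 ratio of LGR4 was -0.18, or -0.07 with the trend removed. LGR5 (ENSG00000139292.8) had 608, 484 and 422 reads, or 3.94, 3.61 and 4.40 CPM. Here the library with both proteins was highest, 1.22 times ADAR2 (1.07 to 1.39), on the other side of 1 from RSPO1. Against the control it was 1.12 times (0.986 to 1.27). LGR6 was barely detected, with 51, 53 and 36 reads.

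ZNRF3 and RNF43 encode the ligases that R-spondins neutralise. ZNRF3 (ENSG00000183579.11) had 4511, 3953 and 2913 reads, which are 29.2, 29.4 and 30.4 CPM. Its 3 ratios were 1.01, 1.03 and 1.04, each with an interval that included 1, and the widest bounds were 0.966 and 1.09. RNF43 (ENSG00000108375.8) had 1454, 1331 and 885 reads, which are 9.41, 9.91 and 9.23 CPM. With both proteins it was 0.931 times ADAR2 (0.854 to 1.01), and its intervals for all 3 comparisons included 1. Neither ligase gene was therefore separable between libraries at this depth.

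CTNNB1 (ENSG00000168036.12) encodes beta-catenin, whose amount is set mainly by degradation of the protein, which transcript levels do not show. It had 55163, 42742 and 31589 reads, or 357, 318 and 330 CPM. The control was highest, and counting error was smallest here among the members. ADAR2 against control was 0.892 (0.880 to 0.903) and both proteins against ADAR2 1.04 (1.02 to 1.05). With its GC content of 43.5%, the log2 ratio of -0.17 for ADAR2 against control became -0.07 with the GC trend removed. Both proteins against control gave 0.923 (0.910 to 0.936), a log2 ratio of -0.12, or -0.02 with the trend removed.

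AXIN2, LEF1, NKD1 and SP5 are further Wnt targets, beside ZNRF3, RNF43 and LGR5 described above. AXIN2 (ENSG00000168646.8), the most widely used readout of Wnt signalling, had 1301, 1106 and 840 reads, or 8.42, 8.24 and 8.76 CPM. It was 1.06 times ADAR2 with both proteins (0.971 to 1.16) and did not separate the libraries. NKD1 (ENSG00000140807.4) had 601, 492 and 403 reads, or 3.89, 3.66 and 4.20 CPM. The library with both proteins was its highest, at 1.15 times ADAR2 (1.003 to 1.31). LEF1 (ENSG00000138795.5), a partner of beta-catenin on DNA, had 5427, 4839 and 3176 reads, or 35.1, 36.0 and 33.1 CPM. Its interval lay wholly below 1 with both proteins against ADAR2, at 0.919 times (0.879 to 0.961), and it was 0.943 times the control (0.902 to 0.986). SP5 (ENSG00000204335.3), whose window is printed above, had 61, 52 and 26 reads, or 0.395, 0.387 and 0.271 CPM, and was the 1 member below a mean of 1 CPM. Its ratio of both proteins to ADAR2 was 0.700 (0.420 to 1.14), an interval that includes both the RSPO1 ratio and 1.

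**Figure D2:**
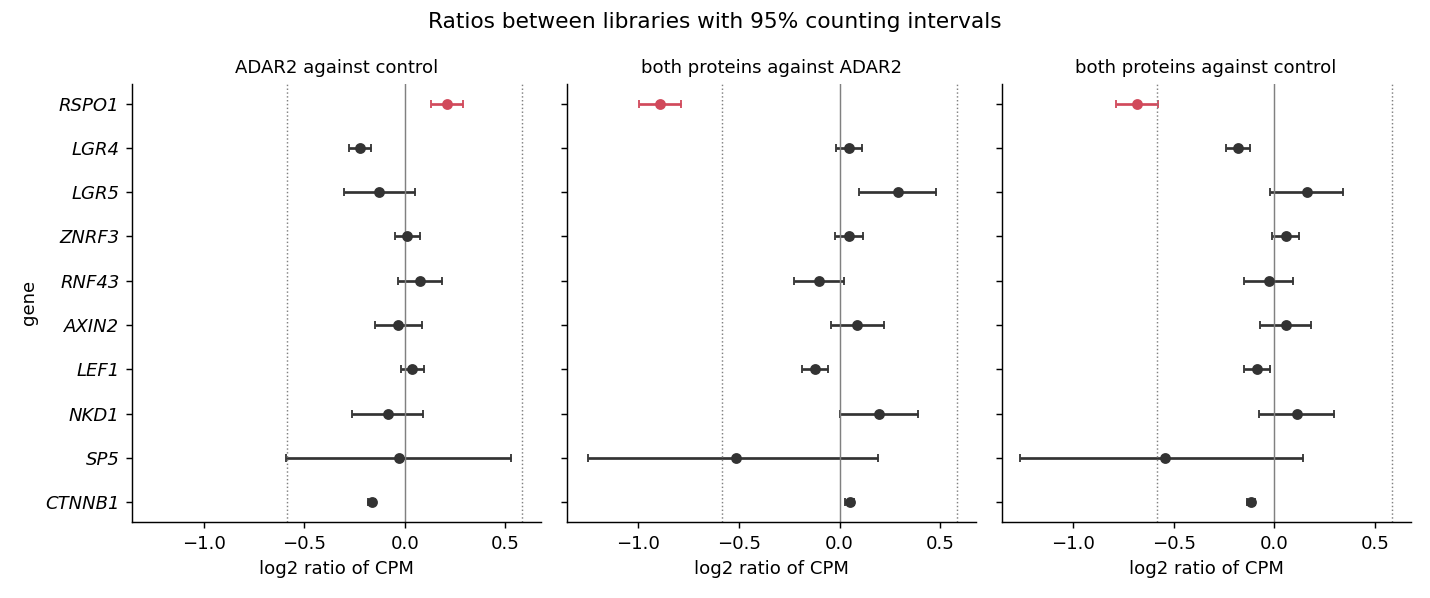
Log2 ratios of CPM for the 10 genes in the 3 comparisons, with 95% counting intervals; dotted lines mark 1.5-fold. RSPO1 (red) lies at -0.89 and -0.68 in the comparisons with the both-protein library, the intervals of the other genes apart from SP5 lie inside the dotted lines, and the comparisons share libraries.

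Counted by a 1.5-fold difference with an interval that excludes 1 among genes at a mean of 1 CPM or more, 0 of the 9 members that passed were apart in ADAR2 against control, where 1.26% of 16072 genes were. In both proteins against ADAR2 the count was 1 of 9, RSPO1, against 3.39% of all genes. In both proteins against control it was again RSPO1 alone, against 3.99%. The share of all genes lower in these 2 comparisons was 2.52% and 2.43%. At 2-fold, 0 members were apart in each comparison, against 0.280%, 0.498% and 0.560% of genes. The 8 other members that passed lay between 0.919 and 1.22 times ADAR2 in the library with both proteins, and all 8 intervals lay inside 1.5-fold, with outer bounds of 0.854 and 1.39. Their median log2 ratios were -0.06, 0.05 and 0.01 in the order ADAR2 against control, both proteins against ADAR2 and both proteins against control, beside -0.000945, 0.01 and -0.01 over all 16072 genes. With the GC trend removed, the ratios of these 8 ran from 0.926 (NKD1) to 1.05 (RNF43), from 0.911 (LEF1) to 1.21 (LGR5) and from 0.912 (LEF1) to 1.19 (LGR5) in the same order. Those of SP5 were 0.861, 0.665 and 0.575.

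Of the wider list of 34 Wnt target genes, 28 passed the filter, and 0 of 28 were 1.5-fold apart in each of the 3 comparisons, where 1.26%, 3.39% and 3.99% of all genes were. With both proteins against ADAR2, the comparison in which RSPO1 was lowest, 22 of 28 had a log2 ratio above 0 (78.6%, beside 53.7% of all genes). Their median was 0.08, or 0.06 with the GC trend removed. The targets reached from -0.15 for SOX4, a transcription factor, to 0.53 for DKK1, a secreted inhibitor of LRP6. DKK1 had 159, 124 and 128 reads and was 1.45 times ADAR2 (1.12 to 1.87). Intervals lay wholly above 1 for 12 of the 28 and wholly below 1 for 3, where all genes had 27.5% above and 23.0% below. Without the 6 members among them, 22 targets had a median of 0.08. In ADAR2 against control, where RSPO1 was slightly high, the target median was 0.03 and turned to -0.03 with the GC trend removed. In both proteins against control it was 0.12, or 0.02 with the trend removed, and SOX4 at -0.41 and NKD2, a Dishevelled-binding relative of NKD1, at 0.42 were the ends of the range. NKD2 was at 0.15 with the trend removed. The 28 targets that passed thus did not, as a group, lie on the low side with RSPO1 in these libraries. Single targets were lower with both proteins than with ADAR2, among them LEF1 at 0.919 times (0.879 to 0.961). SP5, which did not pass, was at 0.700 times with an interval that includes 1.

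Of the 18 secreted and membrane inhibitors, 12 passed the filter and 1 was 1.5-fold apart: FRZB, a secreted Frizzled-related protein that binds Wnt ligands. This held for the ADAR2 library beside the control (1.26% of all genes apart) and between the 2 overexpressing libraries (3.39%). When the both-protein library was set beside the control, 0 of the 12 were apart, where 3.99% of all genes were. FRZB had 198, 261 and 88 reads, or 1.28, 1.94 and 0.918 CPM, high with ADAR2 and low with both proteins, as for RSPO1. It was 1.52 times the control with ADAR2 (1.26 to 1.83) and 0.472 times ADAR2 with both proteins (0.367 to 0.603). Among these genes the level per length was highest for KREMEN1, a receptor of DKK1, at 6.12 RPKM in the control. The medians of the list were 0.01, 0.03 and 0.02, with APCDD1 lowest in ADAR2 against control (-0.25), DKK1 highest in both proteins against ADAR2 (0.53), and FRZB lowest in both proteins against control (-0.48).

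Wnt ligands were expressed at low to moderate levels, 9 of 19 passing the filter and 0 being 1.5-fold apart in each comparison, where the shares over all genes were 1.26%, 3.39% and 3.99%. With such shares a count of 0 in a list of this size says little about the list, here and for the lists that follow. Among those that passed, WNT5A, which mostly signals without beta-catenin, had the highest level per length in the control (3.68 RPKM). WNT10B, which acts through beta-catenin, had 1201, 1049 and 1036 reads and was 1.38 times ADAR2 with both proteins (1.27 to 1.51), the largest ratio there among ligands that passed and a log2 ratio of 0.47, or 0.42 with the GC trend removed. Among the 9 ligands that passed, WNT3 was the furthest from 0 in ADAR2 against control (log2 ratio 0.25). In both proteins against control it was WNT10B, at 0.48, or 0.30 with the trend removed, where WNT3A was further at -0.47. With both proteins WNT3A was 0.892 times ADAR2 (0.800 to 0.993) and 0.869 times the control (0.782 to 0.965). Its interval was the 1 of 9 wholly below 1 in each of these 2 comparisons, where 2 and 5 lay wholly above 1. In the secretion and modification list all 5 genes passed and 0 were 1.5-fold apart. WLS, the carrier that brings Wnt proteins to the cell surface, led it at 29.9 RPKM in the control. The furthest from 0 were NOTUM, an extracellular enzyme that inactivates Wnt, at 0.29 in ADAR2 against control (0.10 with the GC trend removed, below TRABD2A at 0.13), TRABD2A, a protease that cleaves Wnt, at -0.43 in both proteins against ADAR2 (0.741 times, 0.621 to 0.881), and its relative TRABD2B at 0.39 in both proteins against control.

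All 16 Frizzled, LRP and related receptor genes passed and 0 were 1.5-fold apart, with medians of 0.01, 0.02 and 0.08 in the 3 comparisons. The last median was -0.07 with the GC trend removed. PTK7 led by length at 11.3 RPKM in the control. The receptors furthest from 0 were FZD3 in ADAR2 against control (-0.31, or -0.14 with the trend removed), FZD1 in both proteins against ADAR2 (0.28) and FZD9 in both proteins against control (0.44, or 0.17 with the trend removed). With the trend removed FZD6 was further from 0 than FZD3 and FZD9 in their comparisons, at 0.25 and 0.29. All 23 genes of the destruction complex and its regulators passed, again with 0 apart, and medians of -0.08, -0.03 and -0.08. CSNK1E, a casein kinase, led by length at 86.9 RPKM in the control. APC2 and APC, related scaffolds of the complex, lay on opposite sides in ADAR2 against control at log2 ratios of 0.52 and -0.34, with GC contents of 69.2% and 39.6%. With the GC trend removed these were 0.33 and -0.20. CSNK1G1 was furthest from 0 in both proteins against ADAR2 (-0.31) and NKD2, again, in both proteins against control (0.42). The 16 nuclear partners of beta-catenin all passed with 0 apart and medians of 0.04, -0.03 and -0.01. PYGO2 led them by length at 21.8 RPKM, and the furthest from 0 were the corepressor CTBP1 in both comparisons with the control (0.26 and 0.29, or 0.11 and 0.10 with the trend removed) and the coactivator BCL9L in both proteins against ADAR2 (-0.26).

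**Figure D3:**
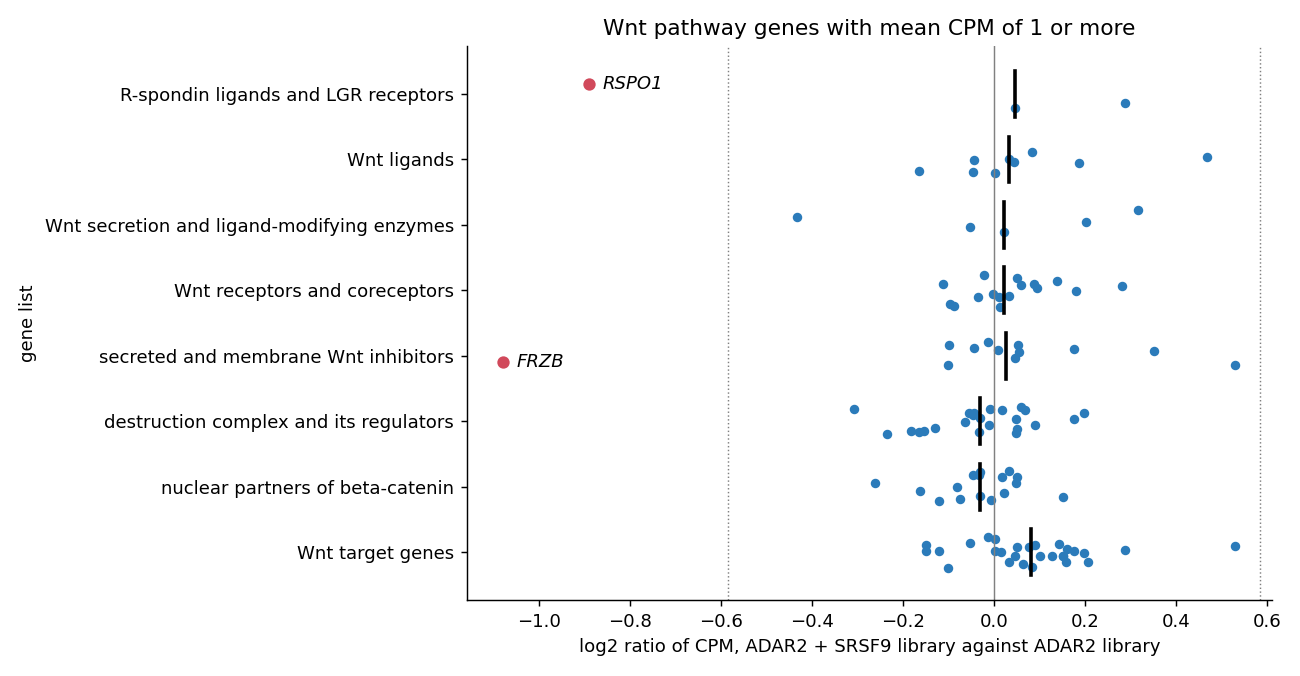
Log2 ratios of both proteins against ADAR2 for Wnt pathway genes at a mean of 1 CPM or more, by list (some genes are in 2 lists); black bars are list medians, dotted lines mark 1.5-fold and vertical scatter has no meaning. RSPO1 at -0.89 and FRZB at -1.08 (red) are the 2 genes beyond 1.5-fold, and the 28 target genes lie between -0.15 and 0.53.

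The genes whose pattern was most like that of RSPO1 were taken from 10800 other protein-coding genes at a mean of 5 CPM or more, by the distance between points given by the log2 ratios of ADAR2 against control and of both proteins against ADAR2 over the 3 libraries. The 8 nearest, at distances of 0.26 to 0.41, were H3F3C, CDKN1A, PABPC3, MTRNR2L12, MSL2, ZNF467, WNK4 and PDE6A. None of them is a gene of the lists above, which says little because 8 of 10800 genes is a small draw. The floor of 5 CPM also kept out Wnt genes of low level, among them FRZB, which was high with ADAR2 and low with both proteins. They were chosen for likeness, so their ratios are a description: with both proteins against ADAR2 they ran from 0.617 for CDKN1A, the cyclin-dependent kinase inhibitor p21, to 0.698 for ZNF467, and RSPO1 at 0.539 was below each. CDKN1A had 6789, 7846 and 3457 reads, high with ADAR2 and low with both proteins, and stood at 0.821 times the control in the latter (0.787 to 0.855), or 0.739 times with the GC trend removed. MSL2, a subunit of a histone acetyltransferase complex, had 11802, 11472 and 5618 reads. H3F3C, PABPC3 and MTRNR2L12 have 1 merged exon each in GENCODE and resemble H3.3, PABPC1 and mitochondrial ribosomal RNA sequences, so reads can be shared between copies. The other 5 have 5 to 20 merged exons. GC content of the 8 ran from 40.5% to 67.5%.

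**Figure D4:**
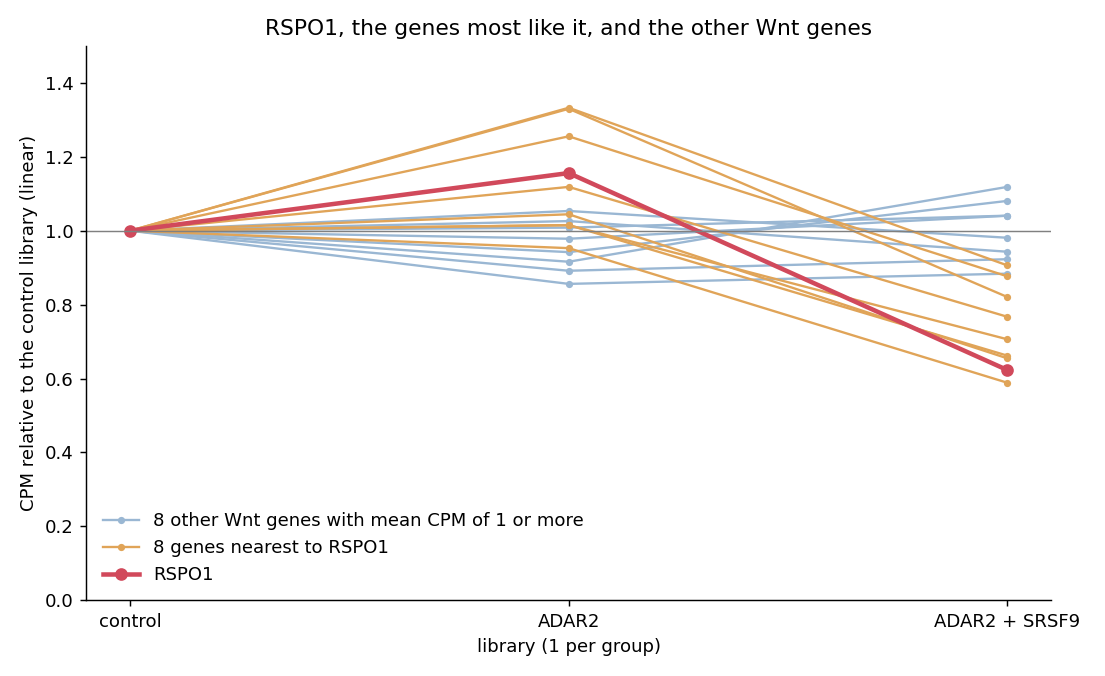
CPM relative to the control library (linear axis) for RSPO1 (red), the 8 genes nearest to it (orange, chosen for this pattern) and the 8 other Wnt genes of the set at a mean of 1 CPM or more (blue); lines join the 3 libraries and are not a time course. With both proteins RSPO1 was at 0.623 times the control and the 8 other Wnt genes at 0.884 to 1.12 times.

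Genes next to RSPO1 on chromosome 1 did not share its low ratio of both proteins to ADAR2. In GENCODE v29 the nearest protein-coding genes are GNL2 (15.4 kb away) and DNALI1 (44.5 kb) on one side and C1orf109 (46.6 kb) and CDCA8 (57.5 kb) on the other. GNL2, a nucleolar GTPase, had 25156, 21798 and 15047 reads and was 0.967 times ADAR2 with both proteins (0.947 to 0.987). C1orf109 was at 0.956 times (0.920 to 0.993). CDCA8, a mitotic kinase complex subunit, was at 0.976 times (0.948 to 1.01), with an ADAR2 level 0.787 times the control (0.768 to 0.806). DNALI1, an axonemal dynein component, was at 0.973 times (0.760 to 1.24) on 186, 164 and 114 reads. In both proteins against ADAR2 the neighbours thus ran from 0.956 to 0.976 where RSPO1 was at 0.539. Against the control, both proteins gave 0.768 for CDCA8 (0.747 to 0.789), which was on the low side with RSPO1 at 0.623. The ratios of GNL2, DNALI1 and C1orf109 to the control were 0.964, 0.988 and 1.03.

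Overlapping genes can trade reads with a member, since whether reads were counted by strand is not stated. In GENCODE v29 no other gene overlaps RSPO1 or SP5. Exons of RNF43 share 143 bp with SUPT4H1 on the same strand (6172, 5145 and 3831 reads), and exons of LEF1 share 279 bp with the antisense gene LEF1-AS1 (53, 75 and 73 reads). Exons of RNF43 also share 4326 bp with AC004687.2 on the same strand, a gene not analysed here. Reads of LEF1-AS1 were few beside the 3176 to 5427 of LEF1. Other overlapping genes matched in the table, apart from ULK4, which overlaps CTNNB1 outside exons, had at most 22 reads in each library.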

How the data were processed

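Per the file headers, the authors deposited 1 count of reads for each gene and library, as whole numbers with no normalisation. Per the submitters' processing notes the build was hg19, and STAR, Picard, GATK and SAMtools are named there without roles. The read counter, its strand setting and its annotation are not stated. Columns were matched to samples by the library code in the labels.

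TMM scaling in edgeR 4.0.16 (R 4.3.3) gave factors of 1.01, 1.01 and 0.979. Other steps used Python 3.11.15, numpy 2.4.6, pandas 2.3.3, scipy 1.17.1 and matplotlib 3.10.9. Log2 ratios carry a library-scaled prior count of 0.5. Intervals are 95%, exact Poisson for a level and Clopper-Pearson for a ratio, and cover counting error. A count of 3 reads corresponds to 0.0194, 0.0223 and 0.0313 CPM. Gene types, lengths, GC content of the longest transcript, neighbours and overlaps come from GENCODE 29 on GRCh38, matched without version for 51802 of 57268 identifiers and for all 10 members. The GC trend is the median log2 ratio in 50 bins of GC content over 9594 protein-coding genes, smoothed over 5 bins. The interval and ratio steps were tested on simulated Poisson counts, the model that the intervals assume. That simulation holds no variation between libraries beyond counting, so it cannot show how the intervals do under such variation.

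The members and lists were chosen with earlier results of these data known. From each Wnt list, genes at 1.5-fold are named, or else the one with the largest log2 ratio in a comparison, and the one highest per length. The 8 genes nearest to RSPO1 and its 2 coding neighbours per side follow rules of their own. Alternatives were upper-quartile scaling, DESeq2 1.42.0 size factors, plain totals, sizes that leave out ADARB1, SRSF9, HBB, HBD and mitochondrial genes, other filters, prior counts and folds, GC trend removal and, chosen after seeing the data, the longest transcript as length.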

Additional observations from a re-analysis of the deposited data

How the results depend on the processing

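Of 133 recalculated values, 115 stayed within 1.5 times the reported count or within counting error, and 18 moved. Some of the 115 could not move: a filter on mean CPM does not enter the log2 ratio of RSPO1. In ADAR2 against control 203 genes were 1.5-fold apart, 545 in the comparison of both proteins with ADAR2, and 641 in that of both proteins with the control. In that order it was 3655, 3931 and 4649 with no filter on mean CPM, 9, 63 and 67 with the filter at 10 CPM, 45, 80 and 90 at 2-fold, and 1343, 1786 and 3017 at a fold threshold below 1.5. At 2-fold the 1 member apart, RSPO1, became 0 in each comparison that includes the both-protein library. With the GC trend removed the RSPO1 log2 ratio moved from 0.209 to 0.0823 for ADAR2 against control and from -0.68 to -0.84 for both proteins against control, and the median of the Wnt targets in the latter moved from 0.120 to 0.0225. The median of the members other than RSPO1 in both proteins against control moved from 0.01 to -0.10 with the filter at 10 CPM, where fewer members enter. Over all settings RSPO1 lay between -0.94 and -0.89 in both proteins against ADAR2, and the target median there between 0.04 and 0.08. RSPO1 was 4th per length in the control with both kinds of gene length. Depth limits SP5 most. No paired analysis was possible because each group is 1 library, and leaving out a replicate was not possible for the same reason.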

Other observations

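Some Wnt genes below a mean of 1 CPM had counting intervals that excluded 1. Large ratios are common at such levels. With no filter on mean CPM, 3655, 3931 and 4649 genes were 1.5-fold apart in the 3 comparisons, beside 203, 545 and 641 with it. The following were picked after their values were seen and are not all such Wnt genes. WNT16, a ligand, had 79 reads in the control, 26 with ADAR2 and 55 with both proteins, so ADAR2 was 0.379 times the control (0.233 to 0.596) and both proteins 1.12 times the control (0.780 to 1.60). SFRP4, a secreted Wnt antagonist, had 108, 41 and 56 reads, with ratios of 0.437 (0.297 to 0.631) for ADAR2 against control and 1.91 (1.26 to 2.94) for both proteins against ADAR2. In these 2 genes the ADAR2 library was the low one. WNT7B ran the other way, with 81, 111 and 50 reads and ratios of 1.58 (1.17 to 2.13) and 0.631 (0.442 to 0.888), high with ADAR2 as RSPO1 and FRZB were. SOST, an inhibitor of LRP5 and LRP6, had 23, 3 and 0 reads.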
